A study of Bos taurus with 2 samples.

Results

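The histone genes of bovine in vitro fertilized embryos are described here in 2 pools, one injected with CDKN1C siRNA and one sham-injected. A gene was taken as a member when its symbol begins with HIST, a cluster digit and H, or with H2AF, H2BF, H3F or H1F, a choice that uses names and no measured value. This gave 37 symbols at 41 loci, out of 21209 symbols and 22220 loci in all. Of these, 24 symbols at 27 loci carry a HIST name and are called replication-dependent here, and 13 symbols at 14 loci are histone variants. All embryos came from cow oocytes that were matured and fertilized in vitro. The injected zygotes received siRNA against CDKN1C, an inhibitor of cyclin-dependent kinases, while the sham zygotes were pierced by the needle and received no siRNA. The labels give neither the siRNA dose, the day of collection nor the number of embryos of the 2 sequenced pools, and embryos injected with an unrelated siRNA were not analysed here. Each pool gave 1 library, with no replicates, so nothing was tested, and all values below compare these 2 libraries and not the conditions.

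Histones package DNA into nucleosomes, each built of H2A, H2B, H3 and H4, with H1 binding the linker DNA between them. Replication-dependent histone genes lie in clusters, are transcribed mainly in S phase, and make mRNAs that usually end in a stem-loop in place of a poly(A) tail. Variant genes are mostly transcribed throughout the cell cycle, make polyadenylated mRNAs, and give nucleosomes particular properties: H2A.Z sits at promoters, H3.3 is deposited in transcribed chromatin, H2AX is phosphorylated at DNA breaks, macroH2A is found on silent chromatin, and special H1 proteins belong to oocytes and male germ cells. In the early embryo, stored histones of the oocyte are replaced by embryonic ones while the zygotic genome becomes active. The RNA was amplified with a kit that primes from poly(A) tails and was made into an mRNA library, so a HIST value counts transcripts that this route can capture. How much of each HIST mRNA this left out was not tested.

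Values are FPKM as estimated by the authors, fragments per kilobase of transcript and per unit of a library scale set by upper-quartile normalization. Levels of different genes are therefore compared per length. A difference is log2 of injected over sham FPKM after 1 FPKM was added to each, which understates the change of genes with low values. It was taken for symbols with a mean of at least 1 FPKM over the pools. Loci with the same symbol were summed. In bulk pools, fewer cells of a type and less RNA per cell cannot be told apart. Near-identical histone copies can share reads, so how Cufflinks divided reads among the HIST genes is uncertain.

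CDKN1C, the siRNA target, was 14.6 FPKM with CDKN1C siRNA against 49.5 FPKM in sham embryos. All deposited values summed to 1051060 FPKM after CDKN1C siRNA and 1384060 FPKM after sham injection, and the median log2 difference over the 7984 genes past the filter was -0.17. When both pools were scaled to the same total and the filter was applied again, the median was 0.17 over 8014 genes. The sign of a small difference therefore depends on the scaling and is given with it below. Markers of the blastocyst were present in both pools: 9 trophectoderm markers summed to 7575 FPKM with CDKN1C siRNA against 17559 FPKM in sham embryos, and 7 inner cell mass markers to 252 and 392 FPKM, none at 0 in either. The trophectoderm sum was mostly the keratins KRT8, at 1610.5 against 5759.9 FPKM, and KRT18, at 5389 against 11245 FPKM. Of the 9 markers 5 were lower and 4 higher, among them IFNT2, the interferon of the trophectoderm, at 135 against 31.1 FPKM. Of 9 oocyte markers found, 2 had a mean of at least 1 FPKM, and the 9 summed to 11.3 FPKM after injection and 27.9 FPKM after sham treatment. Of 6 sperm markers, TNP1, a protein that replaces histones in spermatids, was 25.3 FPKM after CDKN1C siRNA and 99.5 FPKM after sham injection. TNP2 was 5.15 against 6.78 FPKM, and PRM1 was slightly higher after CDKN1C siRNA, at 1.52 against 1.42 FPKM. PRM2 was listed at 0 in the injected pool and at 1.10 FPKM in the sham pool, and ODF1 was at 0 in both. The 6 sperm markers summed to 32.0 and 109 FPKM, mostly from TNP1. Of 10 cumulus and granulosa markers, 5 had a mean of at least 1 FPKM. As deposited, 4 of these were lower after CDKN1C siRNA, among them HSD3B1 at 3.29 against 15.7 FPKM. INHBA was higher, at 3.08 against 2.05 FPKM. PTX3 and AMH were at 0 in both pools, and the sum of the 10 was 16.5 against 30.7 FPKM. Of 6 hypoblast markers, 3 had a mean of at least 1 FPKM. GATA6 was 14.04 against 13.7 FPKM, PDGFRA 2.58 against 1.82 FPKM and HNF4A 1.16 against 3.78 FPKM. SOX17 was at 0 in both pools and GATA4 in the injected pool, and the sum of the 6 was 17.9 against 19.4 FPKM. The part of these differences in the histone values was not tested.

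Variant genes made up most of the FPKM of the 37 symbols in both pools. The 13 variant symbols summed to 2147 FPKM with CDKN1C siRNA against 2242 FPKM in sham embryos, and the 24 replication-dependent symbols to 442 and 573 FPKM. The replication-dependent share of the summed FPKM of these symbols was 17.1% in the injected pool and 20.4% in the sham pool. They include no HIST symbol for H3 or H4, and how much HIST mRNA the poly(A) priming left out was not tested. The share is therefore not that of all histone RNA. On the scale of FPKM as deposited, the log2 ratio of the sums, injected over sham, was -0.38 for replication-dependent and -0.063 for variant symbols. When both pools had equal total FPKM, these ratios were 0.022 and 0.33, so both sums change sign with the scaling. The gap between the classes is the same on every scaling, since both shift together.

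**Figure D1:**
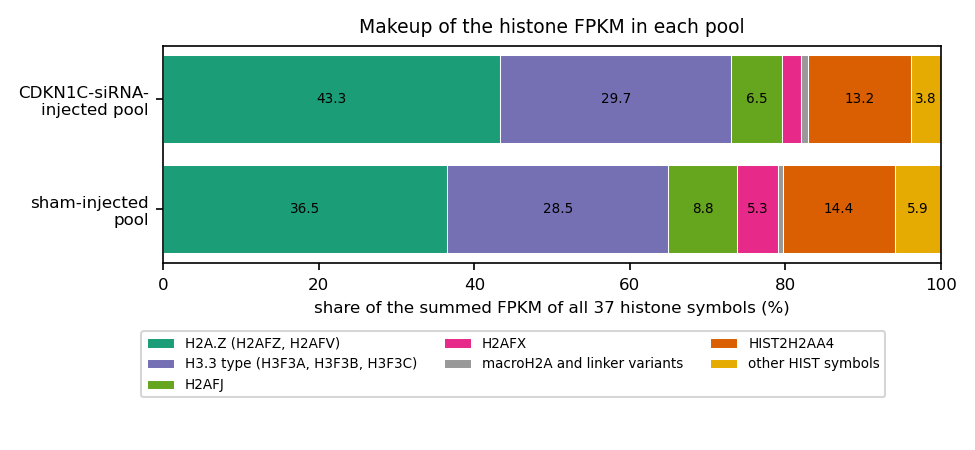
Share of the summed FPKM of all 37 histone symbols (horizontal, %) held by 7 groups of genes in the sham-injected and the CDKN1C-siRNA-injected pool, 1 library each. The 2 H2A.Z genes hold 43.3% in the injected pool and 36.5% in the sham pool, H2AFX 2.51% and 5.31%, and the 23 HIST symbols other than HIST2H2AA4 hold 3.84% and 5.94%.

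A few genes held most of this RNA. In each pool 6 histone symbols were at 100 FPKM or more. In the sham pool these were H3F3A, H2AFZ, HIST2H2AA4, H2AFV, H2AFJ and H2AFX, and in the injected pool H3F3B stood in the place of H2AFX. H2AFZ was rank 184 of the 14039 genes above 0 in the injected pool and rank 248 of 14813 in the sham pool. At the other end, 3 symbols were listed at 0 in the injected pool and 3 in the sham pool.

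Of the 37 symbols, 24 had a mean of at least 1 FPKM, 15 of them replication-dependent and 9 variant. Among the 15 replication-dependent symbols, 5 were lower by 2-fold or more after CDKN1C siRNA and 1 was higher by as much, where 15.7% of all 7984 genes were lower and 4.92% higher by 2-fold or more. Among the 9 variant symbols, 1 was lower by 2-fold or more and 0 were higher. Median log2 differences were -0.26 for the replication-dependent and 0.24 for the variant symbols that passed, beside -0.17 for all genes. The replication-dependent median was 0.14 at equal totals, with the filter applied again after scaling. The variant median was -0.15 with the filter at 5 FPKM, so neither sign held under every alternative. The 5 of 15 amount to 33.3%, and the count was between 1 and 3 under 6 of the alternatives. HIST2H2BF and HIST1H1E, among the 5, passed the filter only through the sham pool, where they were high, so the filter itself favoured a difference and the share is a description of the members that passed. Many HIST loci are short, 16 of 27 spanning under 700 bases, and of the 437 genes with a locus under 2000 bases 24.3% were 2-fold lower or more, with a median of -0.43. Of the 5 lower symbols, HIST2H2BF, HIST1H2BN and HIST1H1E have loci under 2000 bases. HIST1H2BM spans 4251 bases and the longer HIST1H2AC locus 12138 bases. The part of locus length in these differences was not tested.

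**Figure D2:**
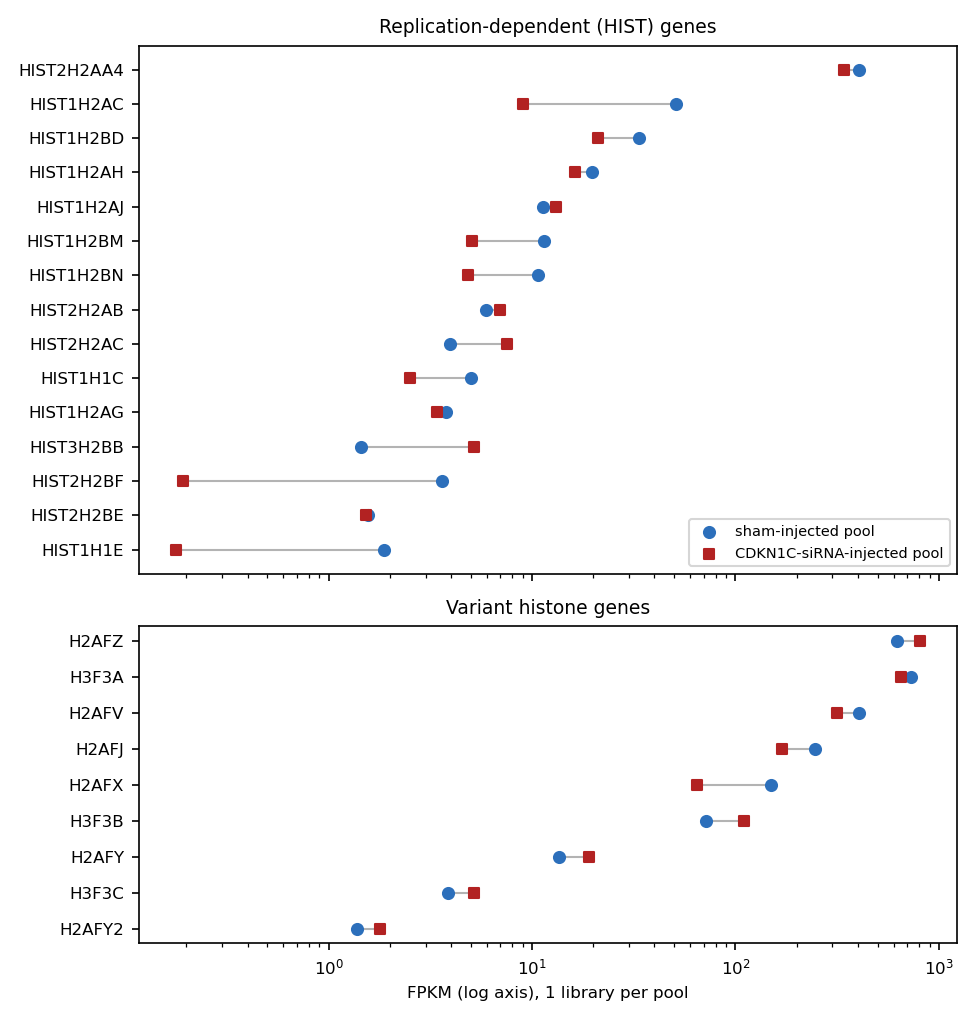
FPKM (horizontal, log axis) of the 24 histone symbols with a mean of at least 1 FPKM in sham embryos (blue circles) and siRNA-injected embryos (red squares), as 1 pooled library each, replication-dependent genes above and variant genes below, each ordered by mean. The widest gaps are those of HIST2H2BF, HIST1H1E and HIST1H2AC, with the sham pool to the right, and HIST3H2BB, with the injected pool to the right.

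Replication-dependent members named only H1, H2A and H2B: the rule found 5 H1, 10 H2A and 9 H2B symbols, and no HIST symbol for H3 or H4. A locus with the bare symbol H4, outside the rule, was 0.223 FPKM after CDKN1C siRNA and 0.869 FPKM after sham injection. Of 3 loci with the bare symbol H2B, also outside it, the highest was on chromosome 3 of bosTau7 from 22091365 to 22092130, at 5.36 against 9.58 FPKM.

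Among H2A genes, HIST2H2AA4 stood alone. It lies on chromosome 3 of bosTau7 from 22080907 to 22081476 and was 343 FPKM with CDKN1C siRNA against 406 FPKM in sham embryos, 1.19-fold lower after injection. That was more than any other HIST symbol by a wide margin, since the other 23 together summed to 99.3 and 167 FPKM. Its log2 difference of -0.24 became 0.15 when both pools had equal total FPKM.

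HIST1H2AC (H2AC6 in RefSeq) had the lowest log2 difference of any histone gene. It was 9.05 FPKM after CDKN1C siRNA and 50.8 FPKM after sham injection, 5.61-fold lower, with a log2 difference of -2.37 that was -1.99 at equal totals. The symbol has 2 loci in the chromosome 23 cluster, which differed in direction. The longer one, from 30902226 to 30914363 of bosTau7, was 7.80 FPKM with CDKN1C siRNA against 50.4 FPKM in sham embryos. The shorter one, of 394 bases from 30773406 to 30773799, was 1.26 against 0.389 FPKM.

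The other H2A genes past the filter were within 2-fold on the deposited scale after adding 1 FPKM. HIST1H2AH was 16.3 FPKM after CDKN1C siRNA and 19.7 FPKM after sham injection, and HIST1H2AJ was 13.1 against 11.3 FPKM. HIST1H2AG (H2AC14) was 3.42 against 3.77 FPKM and HIST2H2AB 6.94 against 5.94 FPKM. HIST2H2AC (H2AC20) was the highest of them relative to sham, at 7.58 FPKM with CDKN1C siRNA against 3.95 FPKM in sham embryos, 1.92-fold higher. Its log2 difference of 0.79 was 1.13, past 2-fold, at equal totals. HIST1H2AH and HIST1H2AG, like HIST2H2AA4, were below 0 on the deposited scale and above 0 at equal totals.

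H2B genes differed more widely. HIST1H2BD (H2BC5), the highest, was 21.2 FPKM after CDKN1C siRNA and 33.5 FPKM after sham injection, 1.58-fold lower. HIST1H2BM was 5.10 against 11.4 FPKM and HIST1H2BN 4.85 against 10.7 FPKM, 2.24-fold and 2.21-fold lower. Both were only just past 2-fold after adding 1 FPKM, with log2 differences of -1.03 and -1.003, and were within 2-fold at equal totals, at -0.68 and -0.66. HIST2H2BF was 0.193 FPKM with CDKN1C siRNA against 3.60 FPKM in sham embryos, with a log2 difference of -1.95. HIST2H2BE (H2BC21) was 1.54 against 1.57 FPKM. HIST3H2BB was the only histone symbol past the filter that was higher by 2-fold or more after adding 1 FPKM to the deposited values. It lies on chromosome 7 from 2463465 to 2463914 of bosTau7 and was 5.17 FPKM after CDKN1C siRNA and 1.44 FPKM after sham injection, 3.60-fold higher, with a log2 difference of 1.34. Over all 9 H2B symbols the sum was 38.3 FPKM after injection and 62.4 FPKM after sham treatment.

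The linker histone genes of the cluster were low. HIST1H1C (H1-2), the highest of them, was 2.50 FPKM with CDKN1C siRNA against 4.996 FPKM in sham embryos, 1.997-fold lower without the added value and -0.78 on the log2 scale with it. HIST1H1E was 0.178 against 1.87 FPKM over 2 loci, of which the one from 30863987 to 30864701 was listed at 0 in the injected pool and at 1.81 FPKM in the sham pool. The other HIST1H1E locus was 0.178 against 0.0647 FPKM. HIST1H1A was 0.232 against 1.54 FPKM and HIST1H1D (H1-3) 0.109 against 0.400 FPKM, while HIST1H1B was higher, at 1.002 against 0.403 FPKM. These 3 had means under 1 FPKM and no difference was taken. Summed over 5 symbols, H1 of the cluster was 4.02 FPKM after CDKN1C siRNA and 9.21 FPKM after sham injection, a log2 ratio of -1.20 that stayed below 0, at -0.80, with equal totals.

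**Figure D3:**
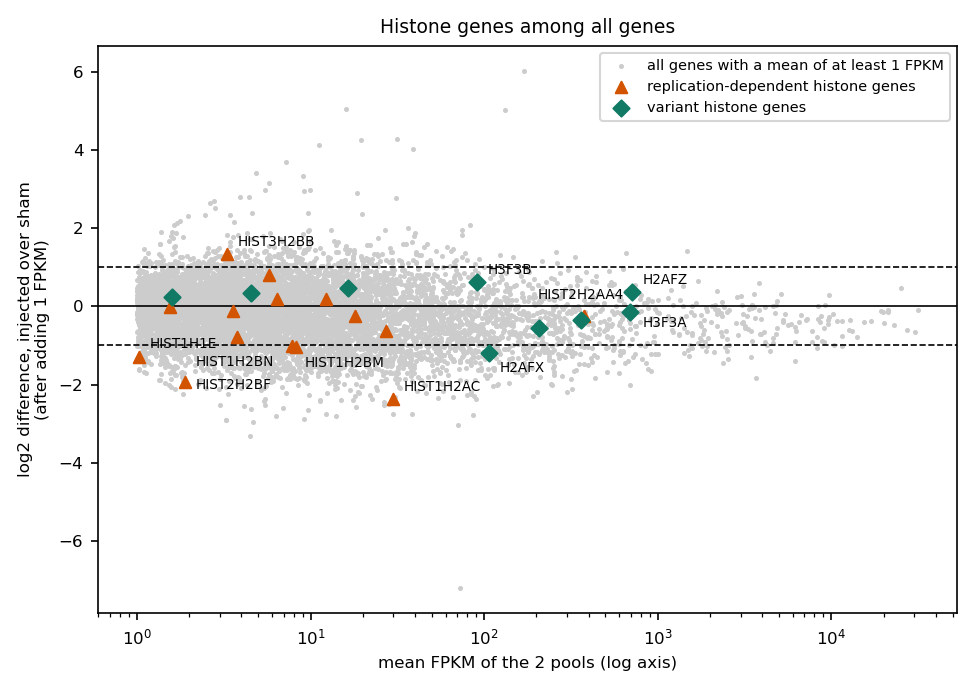
Log2 difference of injected over sham after adding 1 FPKM (vertical) against the mean FPKM of the pools (horizontal, log axis), from 1 library per pool. In grey are all 7984 genes past the filter of 1 FPKM, orange triangles the 15 replication-dependent and green diamonds the 9 variant histone genes, and dashed lines mark 2-fold; the variant genes lie within 2-fold except H2AFX.

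A fold read from values this low has no error here. Among the 3408 genes with a mean from 1 to under 5 FPKM, 10.6% were lower and 4.87% higher by 2-fold or more after adding 1 FPKM. HIST2H2BF, HIST1H1E and HIST3H2BB belong to this range, in which 5% of genes lay below -1.29 and 5% above 0.99. HIST2H2BF lay below the first of these limits and HIST3H2BB above the second, while HIST1H1E, at -1.287, lay just inside the first. Among the 3365 genes with a mean from 5 to under 50 FPKM, 18.9% were at least 2-fold lower, and HIST1H2AC lay below -1.59, the value under which 5% of them fell. HIST1H2BM and HIST1H2BN did not.

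Of the 9 replication-dependent symbols that did not pass the filter, 5 were above 0 in both pools, 2 were listed at 0 in 1 pool and 2 in both. The highest value among them was 1.002 FPKM in the injected pool, of HIST1H1B, and 1.54 FPKM in the sham pool, of HIST1H1A. HIST1H2AA and HIST1H2BB were listed at 0 in both pools. HIST1H2BA, the H2B gene of testis, was 0.258 FPKM in the injected pool and listed at 0 in the sham pool, and HIST1H2BL was listed at 0 and at 0.189 FPKM. HIST1H2AD was 0.516 against 0.0488 FPKM, higher after CDKN1C siRNA but under 1 FPKM in both pools, and HIST3H2A was 0.121 against 0.220 FPKM.

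Neighbours in the clusters did not share a level or a direction in every case. The 19 member loci on chromosome 23 span 29995987 to 31237850 of bosTau7, and the 6 on chromosome 3 span 22058120 to 22175210. HIST1H2AH and HIST1H2BN, 274 bases apart, were 16.3 against 19.7 FPKM and 4.85 against 10.7 FPKM. HIST2H2AA4 and HIST1H2BL are 283 bases apart, with HIST2H2AA4 at 343 against 406 FPKM and HIST1H2BL listed at 0 against 0.189 FPKM. HIST3H2BB was higher in the injected pool while HIST3H2A, 193 bases from it, was 0.121 against 0.220 FPKM. HIST2H2AB, HIST2H2AC and HIST2H2BE lie in a row, 88 and 236 bases apart, and were between 1.54 and 7.58 FPKM in both pools. By name, the 17 HIST1 symbols, of which all but HIST1H2BL lie on chromosome 23, summed to 77.8 FPKM after CDKN1C siRNA and 151 FPKM after sham injection, and the 5 HIST2 symbols to 359 and 421 FPKM. The log2 ratio of the HIST1 sum was -0.95 as deposited and -0.56 at equal totals, and without HIST2H2AA4 the sum of all replication-dependent symbols had a ratio of -0.75 and -0.36. Both sums include HIST1H2AC, at 9.05 FPKM after CDKN1C siRNA and 50.8 FPKM after sham injection, a large part of either gap. Neither was taken without it, so the sums do not show whether the rest of the cluster shifted. Of the 9 HIST1 symbols past the filter, 8 were below 0 as deposited, where the median of all genes was -0.17. Of the 9, 4 were at least 2-fold lower, beside 15.7% of all genes. HIST1H2AH and HIST1H2AG, among the 8, were above 0 at equal totals.

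Among variant genes, those of H2A.Z were the most abundant. H2AFZ (H2AZ1) lies on chromosome 6 from 26342553 to 26345930 of bosTau7 and was 806 FPKM with CDKN1C siRNA against 623 FPKM in sham embryos, 1.29-fold higher. H2AFV (H2AZ2), the second H2A.Z gene, was 315 against 404 FPKM, 1.28-fold lower as deposited. The ratio of H2AFZ to H2AFV was therefore 2.56 in the injected pool and 1.54 in the sham pool, a comparison within each library that no scaling changes. H2AFV was slightly above 0 at equal totals, at 0.038 on the log2 scale, while H2AFZ was above 0 on all 3 scalings.

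The H3.3 genes also differed from each other, here with the less abundant gene higher after CDKN1C siRNA. H3F3A (H3-3A), on chromosome 16 from 26114820 to 26123020, was 653 FPKM after CDKN1C siRNA and 726 FPKM after sham injection. H3F3B, which encodes the same H3.3 protein on chromosome 19 from 57117332 to 57120802, was 110 against 71.6 FPKM, 1.54-fold higher. Its log2 difference of 0.62 was 1.01, just past 2-fold, at equal totals. The ratio of H3F3A to H3F3B was 5.92 in the injected pool and 10.1 in the sham pool. Summed, the 2 genes were 763 and 798 FPKM, a log2 ratio of -0.064 as deposited and 0.33 at equal totals. H3F3C was 5.20 against 3.88 FPKM, all from its locus on chromosome 14, as the one on chromosome 16 was listed at 0 in both pools.

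H2AFX (H2AX), whose product is phosphorylated at DNA breaks, was the variant gene with the largest difference. On chromosome 15 from 28055500 to 28056817 of bosTau7, it was 64.9 FPKM with CDKN1C siRNA against 149 FPKM in sham embryos, 2.30-fold lower. Its log2 difference of -1.19 was -1.03 after the median of all genes was set to 0 and -0.80, within 2-fold, at equal totals. Of the 1211 genes with a mean of 50 FPKM or more, 21.5% were at least 2-fold lower and their median was -0.44. Within the libraries, H2AFZ was 12.4 times H2AFX in the injected pool and 4.17 times in the sham pool. H2AFJ (H2AJ), a replication-independent H2A gene, was lower too, at 169 FPKM after CDKN1C siRNA and 248 FPKM after sham injection, 1.47-fold lower, and was below 0 on all 3 scalings.

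The macroH2A genes were both higher after injection on all 3 scalings, by less than 2-fold. H2AFY (MACROH2A1) was 19.2 FPKM with CDKN1C siRNA against 13.6 FPKM in sham embryos, and H2AFY2 (MACROH2A2) 1.80 against 1.38 FPKM. The deposited locus of H2AFY2 has the same start and end as that of AIFM2, a flavoprotein gene, which was 11.6 against 32.4 FPKM, so reads at that locus may have been divided between them. Of the linker variants, H1FOO (H1-8), the oocyte form of H1, was 0.308 FPKM after CDKN1C siRNA and 0.175 FPKM after sham injection, and H1FNT, the form of spermatids, was 0.529 against 0.435 FPKM. H1FX was 0.883 against 0.0942 FPKM. None of these 3 reached 1 FPKM in either pool. Among the 9 oocyte markers found, 7 had means under 1 FPKM, whereas ZP3, of the zona pellucida, was 9.39 against 23.7 FPKM and NPM2 0.339 against 2.23 FPKM. Their part in the H1FOO values was not tested.

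**Figure D4:**
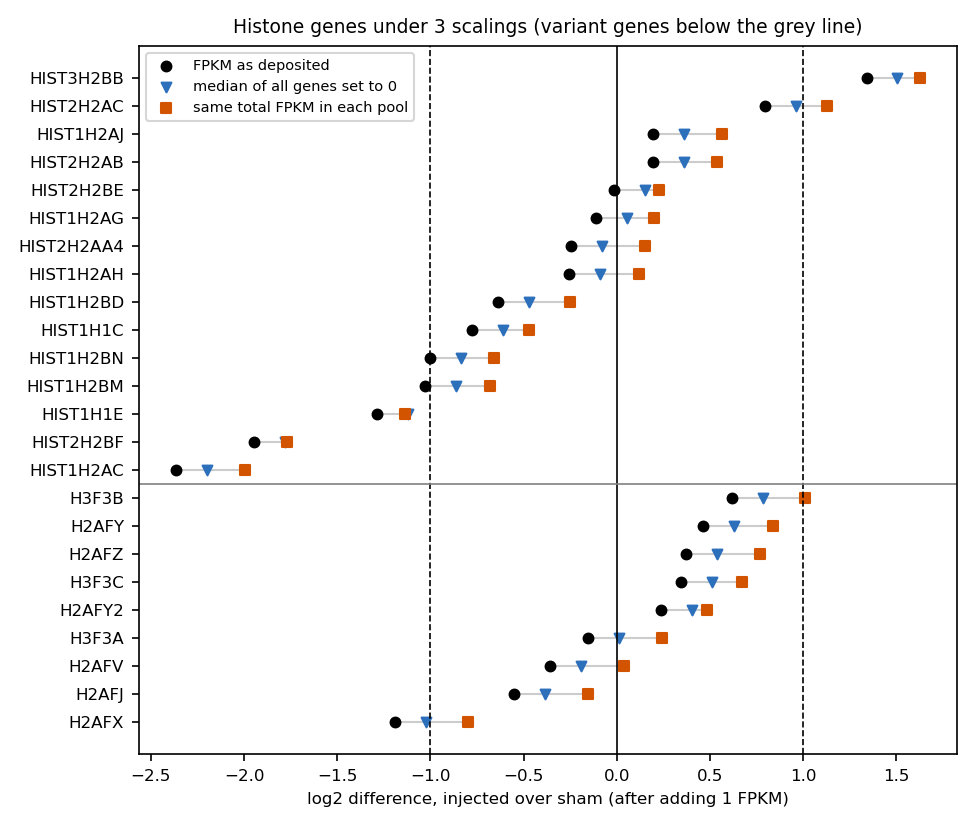
Log2 difference of injected over sham after adding 1 FPKM (horizontal) of the 24 histone symbols with a mean of at least 1 FPKM, for FPKM as deposited (black circles), with the median of all genes set to 0 (blue triangles) and when both pools had equal total FPKM (orange squares), 1 library each. Dashed lines mark 2-fold; 18 of the 24 symbols keep 1 sign on all 3 scalings, 9 of them lower and 9 higher in the injected pool.

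The 6 symbols whose sign depended on the scaling were HIST2H2AA4, HIST1H2AH, HIST1H2AG, HIST2H2BE, H3F3A and H2AFV. On all 3 scalings 7 replication-dependent symbols were lower and 4 higher, and 2 variant symbols were lower and 5 higher. The lower ones were HIST1H2AC, HIST2H2BF, HIST1H1E, HIST1H2BM, HIST1H2BN, HIST1H1C, HIST1H2BD, H2AFX and H2AFJ. The higher ones were HIST3H2BB, HIST2H2AC, HIST1H2AJ, HIST2H2AB, H3F3B, H2AFY, H2AFZ, H3F3C and H2AFY2.

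Genes that process histone mRNA went both ways. SLBP, the protein that binds the stem-loop at the end of replication-dependent histone mRNAs, was 23.8 FPKM with CDKN1C siRNA against 26.2 FPKM in sham embryos. NPAT, an activator of histone gene transcription, was 0.0669 against 0.0409 FPKM. LSM10, a subunit of the U7 particle that cuts these mRNAs, was 9.60 against 19.5 FPKM, and SRRT, a partner of the cap-binding complex, was 4.68 against 12.3 FPKM. NCBP1, a cap-binding subunit, was 5.403 against 1.93 FPKM and ERI1, an exonuclease that trims the stem-loop, 6.37 against 2.42 FPKM. Of 24 listed genes, 19 passed the filter, with 1 lower and 3 higher by 2-fold or more, where 15.7% of all genes were lower and 4.92% higher. They had a median log2 difference of 0.13, which was 0.50 at equal totals. There SRRT was within 2-fold, at -0.88, and CSTF2T, also listed, was past it, at 1.10, so these counts depend on the scaling.

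Histone chaperones, which carry histones to DNA, also went both ways. CHAF1A, of the complex that deposits histones behind the replication fork, was 9.59 FPKM after CDKN1C siRNA and 21.4 FPKM after sham injection, whereas its partner CHAF1B was 4.49 against 3.28 FPKM. ASF1B was 2.07 against 6.47 FPKM, while its relative ASF1A was 21.7 against 17.7 FPKM. NPM2, the oocyte nucleoplasmin, was 0.339 against 2.23 FPKM. HJURP, which loads the centromeric histone CENPA, was 59.0 against 21.8 FPKM, and CENPA itself 6.33 against 4.84 FPKM. ATRX, which deposits H3.3 in heterochromatin, was 4.50 against 1.63 FPKM, and its partner DAXX 6.95 against 11.9 FPKM. Of 26 chaperone genes past the filter, 4 were lower and 2 higher by 2-fold or more, where 15.7% of all genes were lower and 4.92% higher. The lower count is close to that background, and the median was -0.11, or 0.19 at equal totals. There CHAF1A and ASF1B were within 2-fold, at -0.71 and -0.98, and NPM2 stayed past it, at -1.09. ANP32E, also listed, was past 2-fold higher, at 1.37, so these counts depend on the scaling.

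In the complexes that exchange H2A.Z, 4 of 16 genes past the filter were lower by 2-fold or more and 0 were higher by as much, beside 15.7% and 4.92% of all genes. ZNHIT1, a subunit of the SRCAP complex, was 12.0 FPKM with CDKN1C siRNA against 53.0 FPKM in sham embryos, and the helicase gene RUVBL2 was 1.78 against 7.15 FPKM. At the other end were EPC1, at 4.78 against 2.36 FPKM, and EP400, the motor of the TIP60 complex, at 4.59 against 2.69 FPKM. ANP32E, which removes H2A.Z, was 20.4 against 9.75 FPKM. The median of the 16 genes was 0.28 as deposited, with 10 of them above 0, and 0.59 at equal totals. RUVBL1 and VPS72, among the 4 lower genes, were within 2-fold at equal totals, at -0.80 and -0.86. EPC1 was past 2-fold there, at 1.09, so these counts depend on the scaling.

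Of 14 other chromatin proteins past the filter, 3 were higher and 1 was lower by 2-fold or more, beside 4.92% and 15.7% of all genes. Their median was 0.47, where that of all genes was -0.17, and most of them were within 2-fold as deposited. At equal totals the median of the list was 0.85 and that of all genes 0.17, the latter over the 8014 genes that passed the filter after scaling. HMGN1 and HMGN3, which bind nucleosomes, were 111 against 48.3 FPKM and 20.5 against 9.01 FPKM. HMGA1, which binds AT-rich DNA, was 33.2 against 52.5 FPKM and BANF1, of the nuclear envelope, 125 against 287 FPKM. With equal totals BANF1 was within 2-fold, at -0.80, and HMGB1, also listed, was past it, at 1.36. Among 24 genes of S phase and replication, 3 were lower by 2-fold or more and 0 higher by as much, beside 15.7% and 4.92% of all genes, and the median was -0.095, or 0.21 at equal totals. PCNA, the sliding clamp of replication, was 14.4 FPKM after CDKN1C siRNA and 13.9 FPKM after sham injection. MCM7, a helicase subunit, and CDT1, which loads that helicase, were 23.97 against 62.2 FPKM and 2.46 against 7.87 FPKM. RRM1 and POLA1 were 4.33 against 1.76 FPKM and 5.36 against 2.33 FPKM. At equal totals MCM7 was within 2-fold, at -0.95, and CDT1 stayed past it, at -1.04. RRM1 and POLA1 were both past 2-fold higher there, at 1.24, so these counts depend on the scaling.

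**Figure D5:**
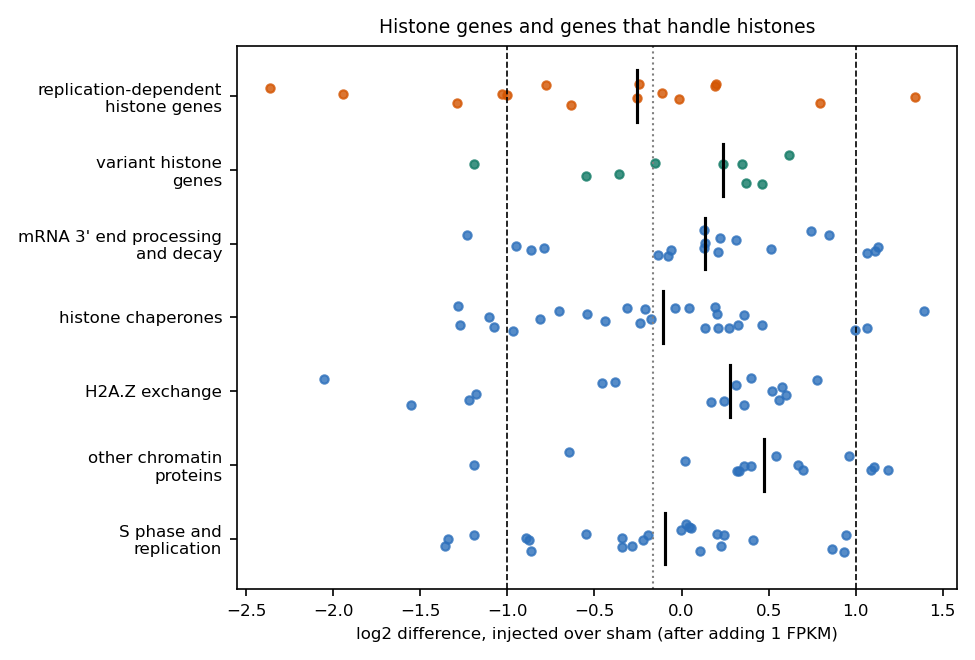
Log2 difference of injected over sham after adding 1 FPKM (horizontal) of replication-dependent and variant histone genes and of 5 lists of genes that handle histones or act in S phase, 1 point per gene with a mean of at least 1 FPKM, 1 library per pool. Black bars mark each group's median, the dotted line the median of all genes at -0.17, and dashed lines 2-fold; the 2 histone classes have medians of -0.26 and 0.24.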

How the data were processed

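RNA-Seq values of 1 CDKN1C-siRNA-injected and 1 sham-injected pool of bovine embryos were analysed. FPKM values were deposited by the authors, who amplified total RNA of each pool, sequenced mRNA libraries, mapped reads to bosTau7 with TopHat and estimated abundance with Cufflinks 2.0.2, with upper-quartile normalization and a bias correction. The gene annotation and strand handling are not given in the sources used here, and read depth is unknown, so no interval is given. From these values, loci without a symbol (615) were left out, loci of a symbol were summed, and log2((injected + 1)/(sham + 1)) was taken for symbols whose mean over the pools reached 1 FPKM. A 2-fold difference on this scale was counted. With 1 library a group no test was run. The calculation was tested on simulated data. Members whose mean reached 1 FPKM are named. From each of the 5 gene lists its first gene, where it passed the filter, and the 2 highest and 2 lowest are named. The markers and other genes were named after their values were seen. The members, the 5 gene lists and the 6 marker lists were chosen with earlier results of these data known. The values of 1 variant member are not reported here. Current symbols come from RefSeq for ARS-UCD2.0, which matched 21 of 37 members. Alternatives were a pseudocount of 0.1 or 5 FPKM, no filter or a filter at 5 FPKM, the median of all differences moved to 0, equal totals, the highest locus per symbol, a loess fit on locus length (span 0.3), a 4-fold threshold and sums without the highest member. Calculations ran in Python 3.11.15 with NumPy 2.4.6, pandas 2.3.3 and statsmodels 0.14.6, and plots in matplotlib 3.10.9.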

Additional observations from a re-analysis of the deposited data

How the results depend on the processing

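Under the alternatives, 41 values kept their direction and stayed close to the value reported, 14 moved by more and 5 changed sign. Close means within 1.5 times for a count, and for a median or a ratio of sums within 1.5-fold after the log2 is undone, so a small log2 value can change by a large part of itself and still count as close. Of replication-dependent symbols, the count at least 2-fold lower, 5 as reported, was 1 with a pseudocount of 5 FPKM or a 4-fold threshold. It was 3 with the filter at 5 FPKM, with the median difference set to 0 or with the loess fit on locus length. It was 2 with the same total FPKM, where the filter was applied again after scaling. HIST1H1E, at -1.14 on that scaling, then no longer passed the filter and was not counted. The count at least 2-fold higher, 1 as reported, was 0 with a pseudocount of 5 FPKM, the filter at 5 FPKM or a 4-fold threshold, and 2 with the same total FPKM. Of variant symbols, the 1 at least 2-fold lower became 0 with the same total FPKM, the loess fit or a 4-fold threshold, and the count at least 2-fold higher went from 0 to 1 with the same total FPKM. The median log2 difference of variant symbols changed sign to -0.15 with the filter at 5 FPKM, and that of replication-dependent symbols to 0.14 with the same total FPKM. The log2 ratio of summed FPKM changed sign to 0.10 for variant symbols with the median set to 0, and to 0.33 for variant and 0.022 for replication-dependent symbols with the same total FPKM. Scaling to the same total multiplies every ratio of sums by the same factor, while differences after adding 1 FPKM move by unequal amounts. For the other changes the cause was not tested. Over all genes, the count at least 2-fold lower was 1255 as reported, 1637 with a pseudocount of 0.1 FPKM, 598 with one of 5 FPKM, 882 with the median set to 0, 587 with the same total FPKM, 895 with the filter at 5 FPKM and 84 at 4-fold. The count at least 2-fold higher was 393, 692, 119, 616, 965, 227 and 33 in the same order, so that the higher share of such genes went from 23.8% to 41.1% with the median set to 0 and to 62.2% with the same total FPKM. Single libraries and unknown depth limit every value.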
